A study of Mus musculus with 12 samples.

Results

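The genes described here encode the inhibitory receptors TIGIT (Tigit), LAG-3 (Lag3), PD-1 (Pdcd1) and TIM-3 (Havcr2), the related inhibitory or regulatory receptors Cd160, Btla, Lair1, Cd101 and Cd96, and Cd226, the activating receptor that shares its ligand with TIGIT and Cd96. They were named by gene symbol, a rule that uses no measured value, though earlier results of these data were known when the set was drawn up, and all 10 were found by symbol among the 23352 gene symbols measured. RNA was sequenced from splenic and lymph node regulatory T cells (Tregs) of C57BL/6 females, sorted into a fraction with low surface CD62L (CD62Llo) and a fraction with high surface CD62L (CD62Lhi). The KO groups carried Ezh2fl/fl and the HET groups Ezh2fl/+, in each case with Foxp3YFP-Cre on 1 X chromosome and a wild-type Foxp3 allele (Foxp3WT) on the other. There were 3 KO CD62Llo, 3 KO CD62Lhi and 3 HET CD62Llo libraries, and 2 HET CD62Lhi libraries were used, since the submitters had set the third aside for its low read counts and 0 of the 10 genes had a value above 0 in it. All 4 groups therefore share the Cre allele and at least 1 floxed Ezh2 allele, and mice with 2 intact Ezh2 alleles are not among them. In such females X inactivation leaves a part of the Tregs without active Cre, and the labels do not say whether YFP was used in the sort. The age of the mice is not given, nor whether libraries came from separate animals, so the p-values below measure the spread between these libraries, which may be technical.

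Inhibitory receptors are surface proteins of T cells that dampen signals from the antigen receptor and from co-stimulation, many of them through tyrosine motifs in their tails that recruit phosphatases. Tregs, which depend on the transcription factor Foxp3, carry several of them, above all after antigen encounter, when the homing receptor CD62L is lost from the surface. Ezh2 is the main enzyme that adds methyl groups to lysine 27 of histone H3, a mark of silenced chromatin.

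Promoter windows of 8 of the 10 genes were matched by symbol in RefSeq (build GRCm38.p6, 250 bases before to 50 bases after the annotated start). The windows of Tigit, Pdcd1 and Havcr2, whose mRNA differed strongly between the fractions, and of Cd96, whose mRNA did not pass the test in any comparison, are shown for comparison. Each runs 5′ to 3′ on the gene's strand, and capitals mark matches to the motifs searched. They lie at chr16:43664135-43664434 (minus strand) for Tigit, chr1:94052504-94052803 (minus) for Pdcd1, chr11:46454681-46454980 (plus) for Havcr2 and chr16:46120199-46120498 (minus) for Cd96.
Tigit: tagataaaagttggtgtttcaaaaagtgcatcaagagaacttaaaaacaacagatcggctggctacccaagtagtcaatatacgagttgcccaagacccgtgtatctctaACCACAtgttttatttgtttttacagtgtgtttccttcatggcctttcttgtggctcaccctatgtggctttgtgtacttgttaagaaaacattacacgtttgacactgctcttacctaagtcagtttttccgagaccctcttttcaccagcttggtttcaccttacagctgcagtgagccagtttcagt
Pdcd1: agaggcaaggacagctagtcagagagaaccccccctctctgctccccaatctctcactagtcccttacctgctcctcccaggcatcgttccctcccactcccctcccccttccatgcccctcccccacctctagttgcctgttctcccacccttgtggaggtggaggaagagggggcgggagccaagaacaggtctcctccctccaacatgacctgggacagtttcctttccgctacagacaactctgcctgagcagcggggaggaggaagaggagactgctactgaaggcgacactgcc
Havcr2: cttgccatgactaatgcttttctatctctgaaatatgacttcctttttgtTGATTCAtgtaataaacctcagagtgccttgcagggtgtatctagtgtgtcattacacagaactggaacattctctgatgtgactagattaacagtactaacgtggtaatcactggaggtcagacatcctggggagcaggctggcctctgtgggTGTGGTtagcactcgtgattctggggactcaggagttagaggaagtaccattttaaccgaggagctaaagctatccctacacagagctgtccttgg
Cd96: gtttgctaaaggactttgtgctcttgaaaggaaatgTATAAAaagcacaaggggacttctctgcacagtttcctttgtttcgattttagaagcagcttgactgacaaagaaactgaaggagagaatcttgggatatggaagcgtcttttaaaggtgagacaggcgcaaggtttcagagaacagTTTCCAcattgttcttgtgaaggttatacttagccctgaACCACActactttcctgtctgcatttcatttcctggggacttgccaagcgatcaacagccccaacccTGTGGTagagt
In the Tigit window the capitals are a RUNX match on the opposite strand at position -140 from the start. In the Havcr2 window they are an AP-1 match at -200 and a RUNX match at -46. The Cd96 window holds a TATA-box match at -214, an NFAT match at -67 and RUNX matches at -28 and 40, and the Pdcd1 window holds none. The motifs, searched on both strands, were RUNX (TGTGGT), AP-1 (TGANTCA), NFAT (TGGAAA), T-box (GGTGTGA) and TATA box (TATAAA), with the NF-kB consensus besides, none of whose matches in these windows overlapped. A RUNX match was present in 6 of the 8 genes searched (Tigit, Havcr2, Cd160, Btla, Cd101 and Cd96), against 18.9% of 27025 genes with such windows. Among these 8, it was found in 4 of the 5 that were higher in CD62Llo Tregs and in 2 of the 3 that were not. AP-1, NFAT, T-box and TATA-box matches were each present in 1 gene, against 8.97%, 23.9%, 4.60% and 15.7% of all genes, and NF-kB in 0, against 1.89%. The windows held 2 to 6 CpG dinucleotides each, where the lower quartile, median and upper quartile over 32851 windows were 3, 7 and 20. A match is a run of letters and says nothing here of binding.

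The libraries' implied depth, estimated from the deposited interval of each FPKM (fragments per kilobase of transcript, scaled to the depth of the library), was 5620000 to 20400000 fragments, and 10597 to 11024 symbols reached an FPKM of 1. Ezh2 had 12.5, 16.8 and 14.4 FPKM in KO CD62Llo against 18.2, 17.8 and 20.5 FPKM in HET CD62Llo (log2 difference -0.36, limma adjusted p = 0.113), and 9.15, 11.5 and 11 FPKM in KO CD62Lhi against 12.7 and 12.5 FPKM in HET CD62Lhi. All KO libraries lay below all HET libraries of their fraction, but a value over the whole gene checks the deletion only in part, since transcripts that lack the floxed exons are counted too. The activation marker Cd44 was higher in CD62Llo in both genotypes, by 1.15 in KO and 1.44 in HET on the log2 scale, and so were Cd4, by 0.31 and 0.52, and Ezh2, by 0.43 and 0.55, while Il2ra did not pass in any comparison. The 7 markers of T cells and Tregs summed to at least 1443 FPKM in every library. Foxp3 averaged 84.2 ± 11, 87.8 ± 3.58, 88.0 ± 6.57 and 91.8 ± 2.74 FPKM in KO CD62Llo, KO CD62Lhi, HET CD62Llo and HET CD62Lhi (SD). KO CD62Llo replicate 3 stood apart: it correlated with the KO CD62Lhi libraries at r of 0.955 to 0.963, against 0.949 and 0.950 with its own group. Leaving it out ended the call between the KO fractions for Ezh2 (limma adjusted p = 0.0571), and its effect on the receptor genes and on the other gene lists is given beside them.

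**Figure D1:**
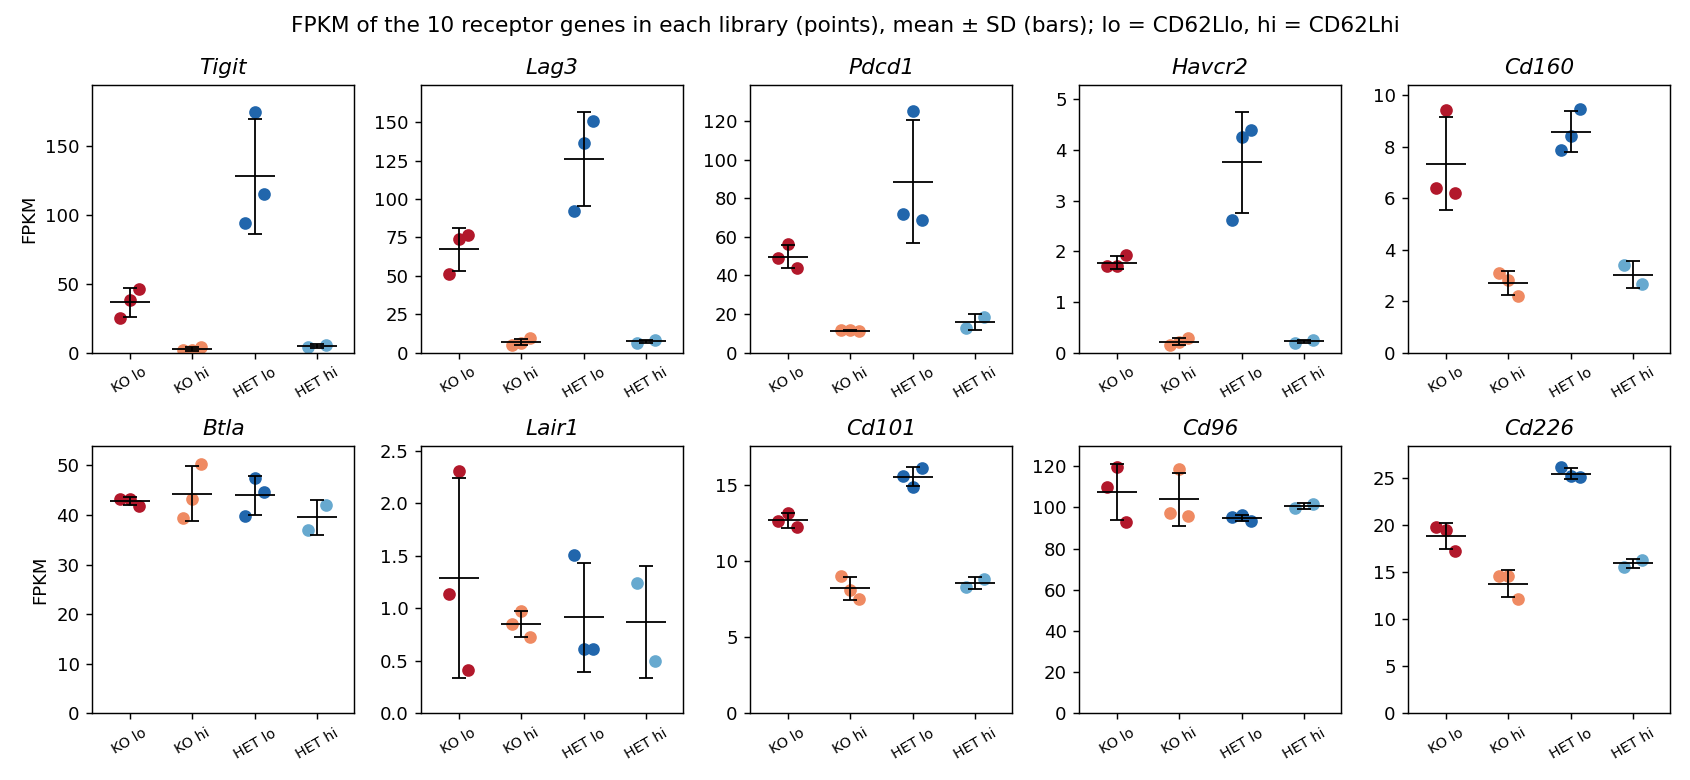
FPKM of each of the 10 genes (vertical axes, each starting at 0) in the 11 libraries, by group: points are libraries, and horizontal bars and whiskers are the mean and SD. For Tigit, Lag3, Pdcd1 and Havcr2 every CD62Llo library lies above every CD62Lhi library and every KO CD62Llo library lies below every HET CD62Llo library, while for Btla and Lair1 the groups overlap.

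In both genotypes, 7 of the 10 genes were higher in CD62Llo than in CD62Lhi Tregs and 0 were lower. They were Tigit, Lag3, Pdcd1, Havcr2, Cd160, Cd101 and Cd226, while Btla, Lair1 and Cd96 did not pass the test in either genotype. The differences ran from 14.0-fold in KO and 26.6-fold in HET for the mean FPKM of Tigit to 1.37-fold in KO and 1.60-fold in HET for Cd226. The test was limma on log2(FPKM + 1), where all values are differences of group means on that scale and understate the change of low genes, with Benjamini-Hochberg adjustment over 11431 genes at 0.05. Of those genes 16.2% were called in KO (11.9% higher and 4.26% lower in CD62Llo) and 27.7% in HET (18.8% higher and 8.88% lower). The median change was 0.87 over the 10 genes in KO beside 0.05 over all genes tested, and 1.02 in HET beside 0.07. The libraries of the fractions did not overlap for 7 of the 10 genes in KO, as for 34.8% of all genes, and for 8 in HET, as for 53.9%. In such bulk RNA, fewer cells of a type and less RNA per cell cannot be told apart.

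Tigit, on chromosome 16 (mm10 positions 43648861 to 43664184), encodes a receptor that binds CD155 and competes for it with the activating receptor CD226. It had 25.4, 37.9 and 45.7 FPKM in KO CD62Llo against 1.70, 1.99 and 4.06 FPKM in KO CD62Lhi, and 93.6, 174 and 115 FPKM in HET CD62Llo against 3.90 and 5.70 FPKM in HET CD62Lhi. The lowest CD62Llo library lay far above the highest CD62Lhi library in each genotype. The log2 difference was 3.40 (SE 0.31, limma adjusted p = 1.64e-04) in KO and 4.44 (SE 0.35, adjusted p = 3.13e-05) in HET. Among the 11431 genes tested, ordered from the largest increase in CD62Llo down, Tigit stood at rank 9 in KO and 10 in HET. Without KO CD62Llo replicate 3 the KO difference was 3.22 for Tigit, 3.01 for Lag3, 2.11 for Pdcd1, 1.16 for Havcr2, 1.26 for Cd160, 0.60 for Cd101 and 0.49 for Cd226, and limma called all 7.

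Lag3, on chromosome 6 (124904359 to 124911705), encodes a CD4-like receptor that binds MHC class II. It had 51.2, 74.1 and 76.6 FPKM in KO CD62Llo against 5.22, 6.18 and 9.40 FPKM in KO CD62Lhi, and 92.0, 136 and 151 FPKM in HET CD62Llo against 6.44 and 7.95 FPKM in HET CD62Lhi. The fractions were again far apart, with ratios of the means of 9.70 in KO and 17.6 in HET. The log2 difference was 3.12 (SE 0.24, limma adjusted p = 7.76e-05) in KO, where the gene stood at rank 18 in the same order, and 3.93 (SE 0.27, adjusted p = 1.61e-05) in HET, where it stood at rank 17.

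Pdcd1, on chromosome 1 (94038305 to 94052553), encodes PD-1, which binds PD-L1 and PD-L2 and recruits the phosphatase SHP-2. It had 49.2, 56.2 and 43.9 FPKM in KO CD62Llo against 11.8, 11.5 and 11.1 FPKM in KO CD62Lhi, and 71.9, 125 and 68.7 FPKM in HET CD62Llo against 13 and 18.6 FPKM in HET CD62Lhi. Its log2 difference was 2.02 (SE 0.22, limma adjusted p = 3.24e-04) in KO and 2.38 (SE 0.24, adjusted p = 1.16e-04) in HET. Unlike Tigit and Lag3, it was already at over 10 FPKM in each CD62Lhi library. HET CD62Llo replicate 2 held the highest Tigit and Pdcd1 values of all 11 libraries.

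Havcr2, on chromosome 11 (46454931 to 46481254), encodes TIM-3, a receptor for galectin-9, phosphatidylserine and other ligands. It had 1.70, 1.71 and 1.92 FPKM in KO CD62Llo against 0.150, 0.217 and 0.280 FPKM in KO CD62Lhi, and 2.61, 4.26 and 4.40 FPKM in HET CD62Llo against 0.198 and 0.239 FPKM in HET CD62Lhi. It was thus the lowest of the 10 genes in CD62Lhi and near the bottom of the order in CD62Llo, and its values rest on an implied 14 to 236 fragments per library. The ratio of the means was 8.24 in KO and 17.2 in HET, but on the log2(FPKM + 1) scale, which compresses low values, the difference was 1.19 (SE 0.14, limma adjusted p = 6.40e-04) in KO and 1.94 (SE 0.16, adjusted p = 4.38e-05) in HET.

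Cd160 and Btla encode receptors that both bind the TNF receptor family member HVEM, and only the difference of Cd160 between the fractions passed the test. Cd160, on chromosome 3 (96798763 to 96829351), had 6.39, 9.41 and 6.22 FPKM in KO CD62Llo against 3.09, 2.81 and 2.18 FPKM in KO CD62Lhi, and 7.87, 8.41 and 9.45 FPKM in HET CD62Llo against 3.39 and 2.66 FPKM in HET CD62Lhi. Its log2 difference was 1.16 (SE 0.15, limma adjusted p = 0.00107) in KO and 1.25 (SE 0.17, adjusted p = 6.50e-04) in HET. Btla, on chromosome 16 (45224337 to 45252895), had 43.3, 43.3 and 41.8 FPKM in KO CD62Llo against 39.3, 43.3 and 50.2 FPKM in KO CD62Lhi, and 39.8, 47.5 and 44.6 FPKM in HET CD62Llo against 37.1 and 42.0 FPKM in HET CD62Lhi. The Btla fractions overlapped in both genotypes. Its log2 difference had 95% intervals of -0.25 to 0.17 in KO and -0.09 to 0.38 in HET, a span well short of the Cd160 difference.

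Cd101, on chromosome 3 (100993529 to 101029495), encodes an immunoglobulin-family glycoprotein known to restrain T cell activation. It had 12.6, 13.2 and 12.2 FPKM in KO CD62Llo against 9.0, 8.08 and 7.50 FPKM in KO CD62Lhi, and 15.6, 14.9 and 16.1 FPKM in HET CD62Llo against 8.30 and 8.84 FPKM in HET CD62Lhi. This was a smaller step than for Tigit, Lag3, Pdcd1, Havcr2 and Cd160 but with little spread inside each group. The log2 difference was 0.57 (SE 0.07, limma adjusted p = 5.04e-04) in KO and 0.79 (SE 0.07, adjusted p = 7.94e-05) in HET.

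Cd226 and Cd96 encode the other receptors for the TIGIT ligand CD155. Cd226, on chromosome 18 (89197427 to 89270327), encodes the activating one and had 19.9, 19.5 and 17.3 FPKM in KO CD62Llo against 14.7, 14.6 and 12.2 FPKM in KO CD62Lhi, and 26.2, 25.3 and 25.1 FPKM in HET CD62Llo against 15.6 and 16.3 FPKM in HET CD62Lhi. The groups did not overlap, and the log2 difference was 0.43 (SE 0.08, limma adjusted p = 0.00517) in KO and 0.65 (SE 0.09, adjusted p = 5.51e-04) in HET. Cd96, on chromosome 16 (46035657 to 46120248), had 110.1, 119.8 and 93.0 FPKM in KO CD62Llo against 97.4, 119 and 95.7 FPKM in KO CD62Lhi, and 95.2, 96.4 and 93.3 FPKM in HET CD62Llo against 99.8 and 102 FPKM in HET CD62Lhi. Its log2 difference was 0.05 (95% interval -0.18 to 0.28) in KO and -0.08 (-0.34 to 0.17) in HET. Its 3 HET CD62Llo libraries lay just below its 2 HET CD62Lhi libraries. Tigit, Btla and Cd96 lie within 2.47 Mb of chromosome 16, and of these only Tigit passed the test between the fractions.

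**Figure D2:**
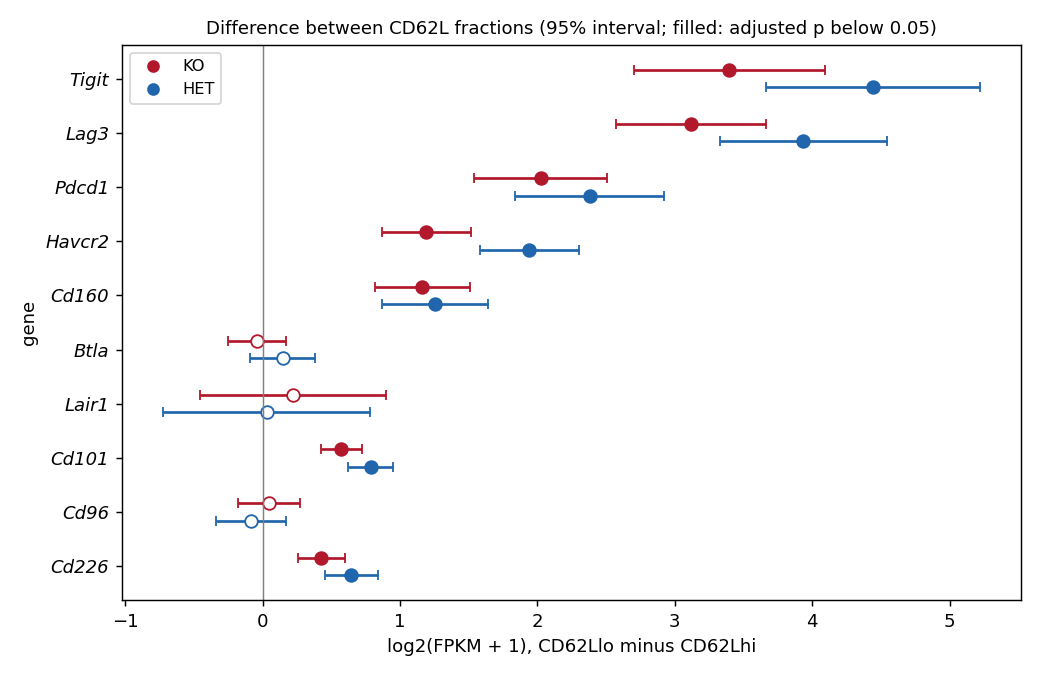
Difference in log2(FPKM + 1) between CD62Llo and CD62Lhi (horizontal axis) for the 10 genes, in KO (red, upper of each pair) and HET (blue): points are limma estimates, bars 95% intervals, and filled points have an adjusted p below 0.05. The 7 filled genes run from Tigit at 3.40 in KO and 4.44 in HET to Cd226 at 0.43 and 0.65, and the bars of Btla, Lair1 and Cd96 cross 0.

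Markers of other cells moved with the fractions as well. The 10 markers of B cells, which also carry BTLA, summed to 28.3 to 72.4 FPKM in KO CD62Llo against 90.6 to 153.8 FPKM in KO CD62Lhi, and to 23.9 to 35.6 FPKM in HET CD62Llo against 94.5 to 114.6 FPKM in HET CD62Lhi. The 10 markers of CD8 T and NK cells, which can carry most of these receptors, summed to 16.3 to 23.8 FPKM in KO CD62Llo against 39.1 to 48.5 FPKM in KO CD62Lhi, and to 16.9 to 21.2 FPKM in HET CD62Llo against 48.0 to 57.1 FPKM in HET CD62Lhi, with Klre1 and Klra8 at 0 in every HET CD62Llo library. The B cell sum and the CD8 T and NK sum were thus lower in the fraction in which the 7 receptor genes were higher. The sum of the 10 myeloid markers was higher in that fraction, at 38.5 to 310.2 FPKM in KO CD62Llo against 21.3 to 30.7 FPKM in KO CD62Lhi. In HET it was 56.8 to 134.1 FPKM in CD62Llo against 20.5 to 47.1 FPKM in CD62Lhi. In each genotype 8 of 10 B cell markers were lower in CD62Llo, and of 7 tested CD8 T and NK markers 5 were lower and Klrb1c was higher. Of 7 tested myeloid markers Lyz2 was higher in CD62Llo in both genotypes. Without KO CD62Llo replicate 3, 10 of 10 B cell markers and 4 of 7 CD8 T and NK markers were lower between the KO fractions, and 4 of 7 myeloid markers were higher. The part of other cells in the receptor differences was not tested further.

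In CD62Llo Tregs, 3 of the 10 genes were lower in KO than in HET, namely Tigit, Havcr2 and Cd226, and 0 were higher. Of all genes tested 4.6% were called, 3.25% lower and 1.36% higher. For 6 of the 10 genes (Tigit, Lag3, Pdcd1, Havcr2, Cd101 and Cd226) each of the 3 KO libraries lay below each of the 3 HET libraries, where 20.2% of all genes were separated in either direction. The mean KO level came to 28.45% of the HET level for Tigit, 53.25% for Lag3, 47.3% for Havcr2, 56.2% for Pdcd1, 74.1% for Cd226 and 81.7% for Cd101. In the authors' deposited table, which gives 1 FPKM for each group, the KO CD62Llo to HET CD62Llo ratio was 0.2895 for Tigit, 0.5445 for Lag3, 0.565 for Pdcd1, 0.468 for Havcr2, 0.748 for Cd226 and 0.835 for Cd101. The median difference was -0.34 over the 10 genes and -0.03 over all genes tested.

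Tigit differed most, at 36.3 ± 10.3 FPKM in KO CD62Llo and 128 ± 41.8 FPKM in HET CD62Llo (SD, n = 3 each), a log2 difference of -1.78 (SE 0.31, 95% interval -2.47 to -1.08, limma adjusted p = 0.0151). Even the highest KO library, at 45.7 FPKM, lay well below the lowest HET library, at 93.6 FPKM. Havcr2 averaged 1.78 ± 0.123 FPKM in KO and 3.76 ± 0.997 FPKM in HET (log2 difference -0.75, SE 0.14, adjusted p = 0.0204), with the KO libraries close together and the HET libraries spread. Cd226 averaged 18.9 ± 1.40 FPKM in KO and 25.5 ± 0.572 FPKM in HET (log2 difference -0.42, SE 0.08, adjusted p = 0.0180). Lag3, at 67.3 ± 14.0 FPKM in KO and 126 ± 30.6 FPKM in HET, had a log2 difference of -0.89 (95% interval -1.43 to -0.35) and an adjusted p of 0.0764. Pdcd1, at 49.8 ± 6.16 FPKM in KO and 88.6 ± 31.8 FPKM in HET, had -0.77 (-1.26 to -0.29) and 0.0831, and Cd101, at 12.7 ± 0.486 FPKM in KO and 15.5 ± 0.622 FPKM in HET, had -0.27 (-0.42 to -0.12) and 0.0507, so that these 3 did not pass the threshold. The other 4 genes overlapped between the genotypes, with log2 differences of -0.22 (95% interval -0.56 to 0.13) for Cd160, -0.03 (-0.25 to 0.18) for Btla, 0.17 (-0.06 to 0.40) for Cd96 and 0.20 (-0.47 to 0.88) for Lair1.

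These calls depended on single libraries and on the fit. With the replicate numbers as a block, limma adjusted p-values were 0.00617 for Tigit, 0.00457 for Lag3, 0.0288 for Pdcd1, 0.0151 for Havcr2, 0.00818 for Cd226 and 0.0576 for Cd101, so that 5 genes were lower in KO. With only the 2 CD62Llo groups in the fit they were 0.0556 for Tigit, 0.108 for Havcr2 and 0.0598 for Cd226, and 0 genes passed. Without HET CD62Llo replicate 2, which had the highest Tigit and Pdcd1, 0 genes passed, at differences of -1.53 for Tigit (adjusted p = 0.0555), -0.67 for Havcr2 (0.0840) and -0.42 for Cd226 (0.0653). Cd226 alone passed without KO CD62Llo replicate 1 (Tigit -1.55, adjusted p = 0.0595, and Havcr2 with 0.0810). Tigit alone passed without KO CD62Llo replicate 3 (-1.96, adjusted p = 0.0262, with 0.0513 for Havcr2 and 0.0573 for Cd226). Without HET CD62Llo replicate 3 Tigit and Cd226 passed and Havcr2 did not (0.0667). Across all 20 alternatives the 6 genes kept a lower KO level in each of 120 values. Since each KO library lay below each HET library for them, leaving out a library or changing the pseudocount could not turn the sign. The kept direction therefore adds little to that separation.

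**Figure D3:**
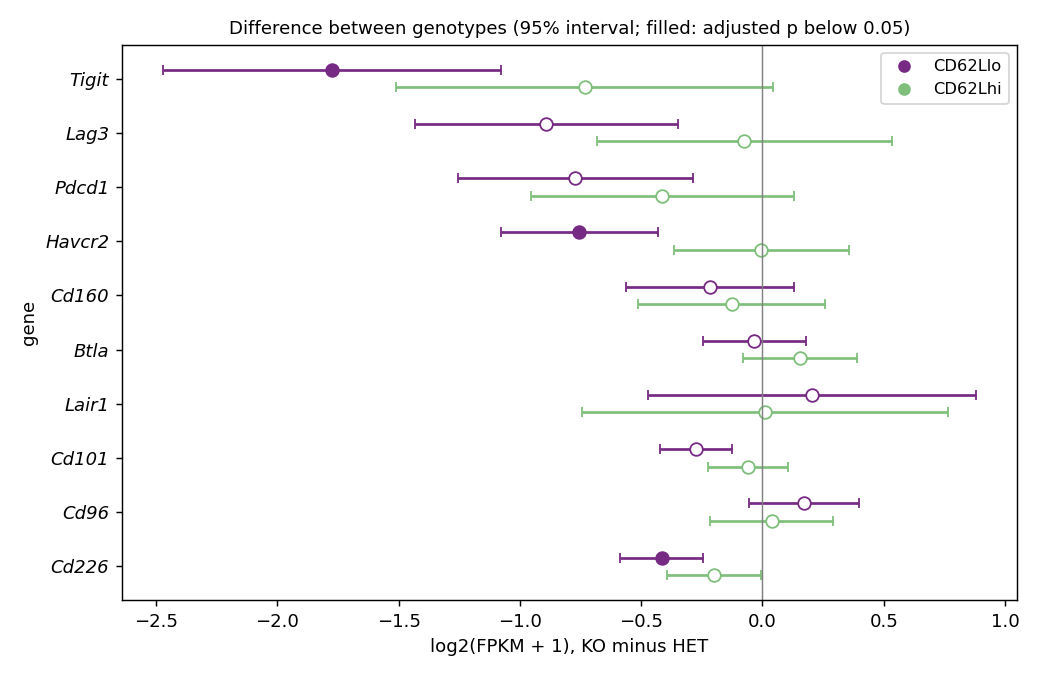
Difference in log2(FPKM + 1) between KO and HET (horizontal axis) for the 10 genes, in CD62Llo (purple, upper of each pair) and CD62Lhi (green): points are limma estimates, bars 95% intervals, and filled points have an adjusted p below 0.05. Filled points are Tigit at -1.78, Havcr2 at -0.75 and Cd226 at -0.42, all in CD62Llo.

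Cd44 and markers of other cells stood as follows in the same libraries. Cd44 averaged 24.6 ± 4.94 FPKM in KO CD62Llo and 33.2 ± 2.11 FPKM in HET CD62Llo (log2 difference -0.43, limma adjusted p = 0.0794). KO CD62Llo replicate 3, with the highest B cell marker sum of its group, at 72.4 FPKM, also had the highest Tigit, Lag3 and Havcr2 of the 3 KO CD62Llo libraries, and the lowest Pdcd1, Cd160, Btla, Lair1, Cd101, Cd96 and Cd226. Of the markers of B, CD8 T and NK, and myeloid cells, 0 differed between KO and HET CD62Llo by the limma test, with 1, 2 and 0 at an unadjusted p under 0.05. Their median log2 differences were 0.41 for B cells, 0.08 for CD8 T and NK cells and 0.50 for myeloid cells, against -0.03 over all genes tested. Without KO CD62Llo replicate 3 these medians were -0.02, 0.04 and 1.16, and the myeloid marker Lyz2 was higher in KO. The part of the make-up of the sorted fraction in the receptor differences was not tested.

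In CD62Lhi Tregs, 0 of the 10 genes differed between KO and HET by the limma test, nor did any of the 11431 genes. At an unadjusted p under 0.05 there were 328 genes (2.87%), among them Cd226 (13.8 ± 1.42 FPKM in KO and 15.9 ± 0.519 FPKM in HET, log2 difference -0.20, 95% interval -0.39 to -0.01, unadjusted p = 0.0449 by limma). With only the 2 CD62Lhi groups in the fit 5 genes were called, none of them a receptor gene. Tigit averaged 2.59 ± 1.29 FPKM in KO CD62Lhi (n = 3) and 4.8 ± 1.27 FPKM in HET CD62Lhi (n = 2), with a log2 difference of -0.73 whose 95% interval, -1.51 to 0.05, overlaps that of CD62Llo, -2.47 to -1.08. Pdcd1 averaged 11.4 ± 0.351 FPKM in KO and 15.8 ± 3.99 FPKM in HET (-0.41, 95% interval -0.95 to 0.13). Pdcd1 and Cd226 were the 2 genes whose groups did not overlap, where 22.2% of all genes did not.

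Whether the step between the fractions differed between the genotypes was tested as an interaction, and 0 of the 10 genes passed, with 1 gene of all tested (0.00875%). The interaction was -1.04 for Tigit (limma unadjusted p = 0.0505, adjusted p = 0.658), -0.82 for Lag3 (0.0499 and 0.658), -0.75 for Havcr2 (0.00664 and 0.390) and -0.36 for Pdcd1 (adjusted p = 0.836). Without adjustment 868 genes (7.59%) had a p under 0.05. A genotype difference limited to CD62Llo Tregs was therefore not shown for any of the receptor genes.

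The order of the receptor genes by FPKM, which is a level per length, differed between the fractions. In KO CD62Llo it ran Cd96, Lag3, Pdcd1, Btla and Tigit from the top, with overlapping libraries between Lag3 and Pdcd1 and between Btla and Tigit. In HET CD62Llo it ran Tigit, Lag3, Cd96 and Pdcd1, whose neighbours in the order overlapped, before Btla. In both CD62Lhi groups Cd96 and Btla led, followed by Cd226 and Pdcd1, which overlapped in HET CD62Lhi but not in KO CD62Lhi. Cd160 and Tigit, which overlapped in KO CD62Lhi, stood near the bottom there, above Lair1 and Havcr2.

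The summed FPKM of the 10 genes was 346 ± 28.9 in KO CD62Llo and 195 ± 12.7 in KO CD62Lhi, and 536 ± 93.7 in HET CD62Llo and 197 ± 11 in HET CD62Lhi (SD). Of this sum Tigit, Lag3, Pdcd1 and Havcr2 together took 44.8% ± 4.94 in KO CD62Llo and 10.9% ± 1.73 in KO CD62Lhi, and 64.0% ± 5.61 in HET CD62Llo and 14.2% ± 2.44 in HET CD62Lhi. The KO CD62Llo libraries, at 39.7% to 49.6%, thus lay between the CD62Lhi libraries and the HET CD62Llo libraries, at 58.3% to 69.5%. Without KO CD62Llo replicate 3 the share of the KO CD62Llo libraries was 42.4% ± 3.75 (SD, n = 2). Cd96 took 31.2% ± 3.48 in KO CD62Llo and 53.2% ± 3.75 in KO CD62Lhi, and 18.1% ± 3.07 in HET CD62Llo and 51.3% ± 2.22 in HET CD62Lhi.

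**Figure D4:**
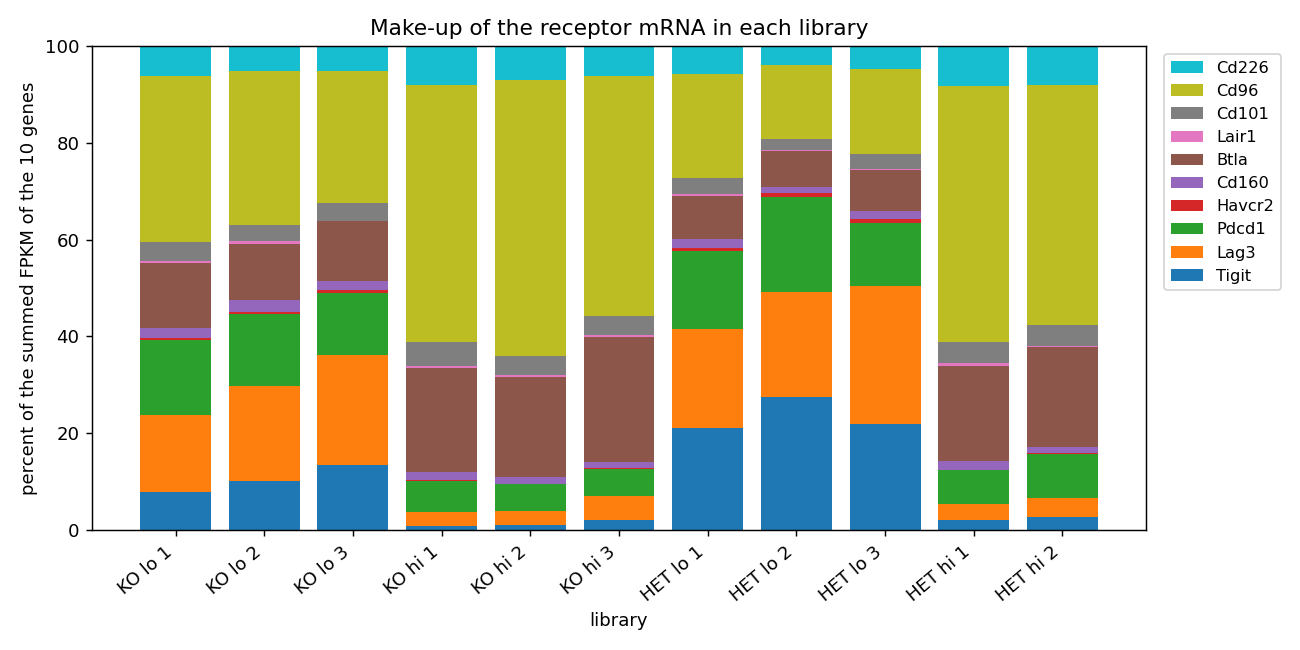
Percent of the summed FPKM of the 10 genes (vertical axis, 0 to 100) taken by each gene in each of the 11 libraries. Tigit, Lag3, Pdcd1 and Havcr2 at the base of the bars take 39.7% to 49.6% in KO CD62Llo, 9.52% to 12.8% in KO CD62Lhi, 58.3% to 69.5% in HET CD62Llo and 12.4% to 15.9% in HET CD62Lhi, and Cd96 takes most of the rest in CD62Lhi.

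Since TIGIT and CD226 compete for CD155, their mRNA levels were also set against each other in each library. The log2 ratio of Tigit to Cd226, each as FPKM + 1, averaged 0.87 ± 0.51 in KO CD62Llo and -2.10 ± 0.63 in KO CD62Lhi, and 2.23 ± 0.47 in HET CD62Llo and -1.56 ± 0.27 in HET CD62Lhi (SD, n = 3, 3, 3 and 2). Tigit thus exceeded Cd226 in every CD62Llo library and was below it in every CD62Lhi library. The log2 ratio of Cd96 to Cd226 ran the other way, at 2.44 ± 0.10 in KO CD62Llo and 2.82 ± 0.15 in KO CD62Lhi, and 1.86 ± 0.03 in HET CD62Llo and 2.59 ± 0.03 in HET CD62Lhi. An exact two-sided permutation test gave p = 0.1 for each of these 4 differences, the smallest these group sizes allow.

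Lair1, on chromosome 7 (4007073 to 4063204), encodes an inhibitory collagen receptor that myeloid and lymphoid cells carry, and it stood out by the spread within its groups. It had 1.14, 2.30 and 0.417 FPKM in KO CD62Llo against 0.851, 0.970 and 0.723 FPKM in KO CD62Lhi, and 1.51, 0.613 and 0.615 FPKM in HET CD62Llo against 1.24 and 0.494 FPKM in HET CD62Lhi. The groups overlapped in each comparison, and the log2 difference between the fractions was 0.22 (95% interval -0.45 to 0.90) in KO and 0.03 (-0.73 to 0.79) in HET. Intervals this wide allow changes of the size seen for Cd101. The summed FPKM of 10 myeloid markers was 168.7, 310.2 and 38.5 in KO CD62Llo against 22.5, 30.7 and 21.3 in KO CD62Lhi, and 134.1, 69.3 and 56.8 in HET CD62Llo against 47.1 and 20.5 in HET CD62Lhi. KO CD62Llo replicate 2 was highest in both measures.

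The relation of Lair1 to the marker sum, both as log2(FPKM + 1), was looked at after their values were seen. Over all 11 libraries Pearson r was 0.748 (permutation p = 0.0135, Benjamini-Hochberg adjusted 0.0135 over 4 such relations) and Spearman rho 0.582 (p = 0.0650, adjusted 0.0650), and r was 0.487 over the 9 libraries left without the 2 farthest from the median marker sum. Over the 6 CD62Llo libraries they had a Pearson r of 0.960 (exact permutation p = 0.0111, Benjamini-Hochberg adjusted 0.0135) and a Spearman rho of 0.886 (p = 0.0333, adjusted 0.0444). Pearson r was 0.872 over the 4 libraries left without the 2 farthest from the median marker sum. Leaving out Lyz2, the most abundant of the markers, gave an r of 0.987 in the CD62Llo libraries (exact permutation p = 0.00556, adjusted 0.0111) and of 0.938 over all 11 (permutation p = 1.2e-04, adjusted 4.8e-04). The libraries share 2 genotypes, and the permutations exchanged them freely across genotypes and, over all 11, across fractions. Their p-values therefore ignore the groups, between whose fractions the marker sum differs. The part of myeloid cells in the Lair1 level was not tested. The genes outside the set most like Lair1 over the 11 libraries were Lypd6b, Plbd1, Pilra, Ctsd and Igsf6, at r of 0.953 to 0.959.

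**Figure D5:**
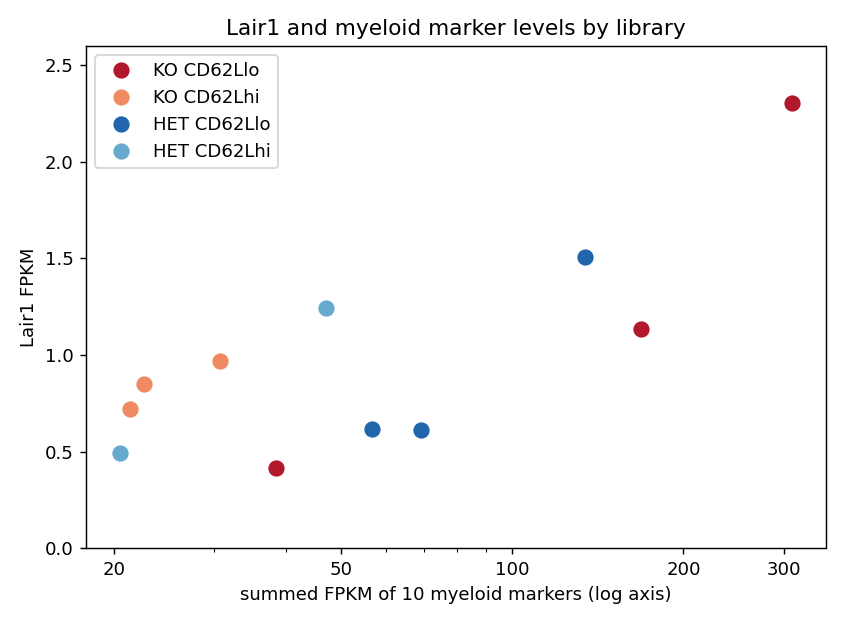
Lair1 FPKM (vertical axis) against the summed FPKM of 10 myeloid markers (horizontal log axis) in the 11 libraries, coloured by group. The 3 KO CD62Llo libraries span 0.417 to 2.30 FPKM of Lair1 and 38.5 to 310.2 FPKM of the markers.

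The libraries fall into the CD62Llo and CD62Lhi fractions, so correlations across all 11 of them mostly follow the fraction and are given as a description. Tigit, Lag3, Pdcd1 and Havcr2 correlated with each other at r of 0.964 to 0.983 on the log2 scale, and Cd101 with each of them at 0.954 to 0.962. The genes outside the set most like Tigit were Il1r2, a decoy receptor for interleukin 1, Nfil3, Rnase4, Mapk8ip1 and Rin2 (r of 0.994 to 0.997). Lag3 was most like the transcription factor gene Maf, the granzyme gene Gzmb, Cpd, Tmem2 and Rabgap1l (0.996). Pdcd1 was most like Stx11, Npas4, Ccdc28b and Hivep3 among those reported (0.986 to 0.991), and Havcr2 like Zswim6, Bcl2a1a, Sccpdh, Ccr1 and Pdcd1lg2 (0.991 to 0.992). By Spearman's rho many genes were tied: Il1r2 and Rin2 for Tigit, Gzmb for Lag3 and Sccpdh for Havcr2 had a rho of 0.991, as other genes did. Genes outside the lists above reached a rho of 1, namely Gp49a for Tigit, Gbp1 and Klrb1f for Lag3, and Pkp3 and Plk3 for Pdcd1. Those named above for Pdcd1 had a rho of only 0.936 to 0.955. The lists thus hold for Pearson r and not for rho.

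Of 13 genes for ligands of the receptors, 7 were expressed highly enough to be tested. In KO CD62Llo against KO CD62Lhi 3 were higher and 1 lower, and in HET 2 were higher and 1 lower. Over all genes tested 11.9% were higher and 4.26% lower in KO, and 18.8% and 8.88% in HET. Pdcd1lg2, the gene for the PD-1 ligand PD-L2, averaged 5.48 ± 0.309 FPKM in KO CD62Llo and 2.66 ± 0.125 FPKM in KO CD62Lhi (log2 difference 0.83, limma adjusted p = 1.42e-04), and 8.97 ± 0.840 FPKM in HET CD62Llo and 2.83 ± 0.149 FPKM in HET CD62Lhi (1.38, adjusted p = 8.86e-06). It was the only tested ligand gene that differed between the genotypes, lower in KO CD62Llo than in HET CD62Llo by limma (-0.62, adjusted p = 0.00335). Cd274, the gene for PD-L1, was higher in CD62Llo (0.23 in KO and 0.41 in HET) and Lgals9, the gene for galectin-9, was lower (-0.20 in KO and -0.26 in HET). Pvr, the gene for CD155, averaged 12.1 ± 1.53, 15.2 ± 2.59, 11.6 ± 2.03 and 15.3 ± 1.60 FPKM in KO CD62Llo, KO CD62Lhi, HET CD62Llo and HET CD62Lhi and did not pass the test in any comparison. Without KO CD62Llo replicate 3 Cd274 lost its call between the KO fractions (0.23, limma adjusted p = 0.0748), while Pdcd1lg2 was still lower in KO CD62Llo than in HET CD62Llo (-0.63, adjusted p = 0.0136).

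Of 19 genes for signalling partners, all were tested, and between the fractions 6 were higher and 2 lower in KO, and 6 higher and 4 lower in HET. The shares over all genes were 11.9% higher and 4.26% lower in KO, and 18.8% and 8.88% in HET. With calls in both directions, the median change of the 19 was 0.04 in KO and 0.02 in HET, beside 0.05 and 0.07 over all genes. Sh2d1a, the gene for the adaptor SAP, was higher in CD62Llo by 0.94 in KO and 1.22 in HET, Sla, an adaptor that lowers antigen receptor levels, by 0.46 and 1.05, and Ptpn11, the gene for SHP-2, by 0.61 and 0.78. Pag1, an adaptor that brings the inhibitory kinase CSK to the membrane, was lower, at differences of -0.49 in KO and -0.80 in HET. In CD62Llo, Sla was lower in KO than in HET (104 ± 8.77 FPKM in KO and 146 ± 20.04 FPKM in HET, limma adjusted p = 0.0311) and Pag1 was higher in KO (12.7 ± 1.52 FPKM in KO and 9.64 ± 0.438 FPKM in HET, adjusted p = 0.0345). Both calls were lost without KO CD62Llo replicate 3 (adjusted p = 0.0853 for Sla and 0.104 for Pag1 by limma). Ptpn6 and Inpp5d, which encode the phosphatases SHP-1 and SHIP-1, did not pass in any comparison. Of the proteases that shed LAG-3 and TIM-3, Adam10 was higher in CD62Llo in both genotypes (0.40 in KO and 0.60 in HET) and Adam17 in HET (0.27).

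Of 15 other co-inhibitory genes 12 were tested, with 5 higher and 1 lower in CD62Llo in KO, and 7 higher and 1 lower in HET. Over all genes tested these shares were 11.9% and 4.26% in KO, and 18.8% and 8.88% in HET. Ctla4, which takes the co-stimulatory ligands CD80 and CD86 from other cells, averaged 142 ± 12.9 FPKM in KO CD62Llo and 64.5 ± 4.72 FPKM in KO CD62Lhi, and 217 ± 47.0 FPKM in HET CD62Llo and 71.5 ± 10.8 FPKM in HET CD62Lhi, and its genotypes did not differ by limma in CD62Llo (-0.59, adjusted p = 0.0650). The 2 genes that were lower in KO CD62Llo than in HET CD62Llo, where 3.25% of all genes were, were the inhibitory receptor genes Lilrb4 and Klrg1. Lilrb4 averaged 2.76 ± 0.596 FPKM in KO and 10.6 ± 2.07 FPKM in HET (log2 difference -1.62, limma adjusted p = 0.00172). Klrg1 averaged 0.338 ± 0.424 FPKM in KO and 6.27 ± 4.12 FPKM in HET (-2.34, adjusted p = 0.00854). Both were still lower without KO CD62Llo replicate 3 (-1.67 and -2.58, limma adjusted p = 0.00793 and 0.0141). Klrg1 stayed below FPKM 1 in every library outside HET CD62Llo, so it entered the test only through the group in which it was high.

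All 14 transcription factor genes linked in the literature to inhibitory receptor genes were tested, with 9 higher and 0 lower in CD62Llo in KO, and 12 higher and 0 lower in HET. Among all genes 11.9% were higher and 4.26% lower in KO, and 18.8% and 8.88% in HET. Maf averaged 50.3 ± 7.28 FPKM in KO CD62Llo and 6.05 ± 2.39 FPKM in KO CD62Lhi (log2 difference 2.90, limma adjusted p = 4.61e-05), and 85.4 ± 6.47 FPKM in HET CD62Llo and 6.15 ± 0.167 FPKM in HET CD62Lhi (3.59, adjusted p = 1.02e-05). In CD62Llo 3 of the 14 were lower in KO than in HET, and 0 were higher, against 3.25% and 1.36% of all genes. Prdm1, the gene for BLIMP-1, averaged 1.76 ± 0.585 FPKM in KO and 6.08 ± 1.55 FPKM in HET (-1.36, adjusted p = 0.00512). Batf, an AP-1 family gene, averaged 74.9 ± 9.31 FPKM in KO and 113 ± 11.8 FPKM in HET (-0.58, adjusted p = 0.0170). Fosl2, of the same family, averaged 0.923 ± 0.0834 FPKM in KO and 1.90 ± 0.373 FPKM in HET (-0.59, adjusted p = 0.0264). It was below FPKM 1 in every KO library, so it entered the test through HET libraries. Without KO CD62Llo replicate 3 Prdm1 was still lower (-1.52, limma adjusted p = 0.00908), and the calls of Batf (adjusted p = 0.0585) and Fosl2 (0.0686) were lost. In CD62Lhi 0 genes of these 5 lists differed between KO and HET by limma, also at an unadjusted p under 0.05.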

How the data were processed

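The deposited values are FPKM per gene with a lower and an upper bound, made by the authors from poly(A) libraries. The submitters' processing notes name CASAVA 1.8.2, FastQC, TopHat (version not given in the sources used here), Cufflinks 2.1.1 and mm10, without roles or settings. No read counts were used. A table of 1 FPKM for each group, made by the authors, was also used.

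Among the 23846 entries in each of 12 files, those of 1 symbol were summed. HET CD62Lhi replicate 3 was left out by its label. The other 11 libraries were analysed in 1 limma fit (3.58.1, in R 4.3.3) of log2(FPKM + 1) on 4 groups, with trended empirical Bayes. Symbols reaching FPKM 1 in 2 or more libraries were kept, 11431 in all, with every one of the 10 receptor genes among them. Adjusted p-values follow Benjamini-Hochberg over these, with a threshold of 0.05. The contrasts set CD62Llo against CD62Lhi in KO and in HET, and KO against HET in each fraction, with their interaction. The fit was tested on simulated data. Permutation tests and correlations were computed with scipy 1.17.1.

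Depth was estimated by taking the deposited bounds as 2 SD on each side. Per library, 12.1% to 30.8% of those entries that lie above FPKM 1 exceeded their own upper bound. So did Tigit in 6 of 11 libraries, Lag3 in 5, Pdcd1 in 7 and Cd96 in 11. For Tigit and Lag3 these were all CD62Llo libraries, where the genes were higher, and for Pdcd1 all but KO CD62Lhi replicate 1 were. No source explains why values exceed their bounds, and depths and fragment numbers are uncertain.

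The pairing check compared deviations from the group means. Between KO and HET CD62Llo libraries with the same number they correlated at 0.165, 0.153 and 0.148, and between those with different numbers at -0.237 to 0.0844. Each same-numbered value thus lay above each of the others. Such deviations sum to 0 within a group, so positive values for some pairs go with negative values for others. That widens the gap without fixing which pairs are positive. Whether the replicate numbers mark a pairing of libraries from mice of unlike genotype was not tested, and none is established. The blocked fit stands beside the main one as an alternative only. Alternatives were the pseudocount, the filter, 2 rescalings, the groups in the fit, the replicate block, library weights, no trend, and leaving out each library. The interval midpoint in place of the FPKM, the relation of Lair1 to myeloid markers, and the other gene lists without KO CD62Llo replicate 3 were added after the data were seen.

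The receptor genes, the other lists and the naming rule were chosen with earlier results of these data known. The rule names every receptor gene, the Treg identity genes, up to 4 called genes of a list by size of change between the HET fractions, and the 5 genes most like each of Tigit, Lag3, Pdcd1 and Havcr2. Others, such as Pvr, Ptpn11, Ptpn6, Inpp5d, Batf and Fosl2, were named after their values were seen. Some genes that the rule picks are left out of this text.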

Additional observations from a re-analysis of the deposited data

How the results depend on the processing

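Among 990 alternative values 30, of 13 results, had the other sign, and 0 of those passed the limma test in either setting; Lair1 between the HET fractions ran from -0.26 to 0.32, Lag3 for KO against HET CD62Lhi from -0.29 to 0.08 and Btla for KO against HET CD62Llo from -0.10 to 0.02. The 14 fraction changes called among the receptor genes kept direction and call in all 280 of theirs. Of the KO against HET CD62Llo calls (3 receptor genes), 0 remained with only the 2 groups fitted, and 5 genes were called with the replicate block or with library weights. Leaving out 1 library at a time gave 7 to 7 receptor genes between the fractions in KO and in HET, 0 to 0 between genotypes in CD62Lhi and for the interaction, and 0 to 4 in CD62Llo. The same settings gave 1187 to 1974 of all genes between the KO fractions (1852 with all libraries), 1916 to 3337 between the HET fractions (3163), 0 to 5 for KO against HET CD62Lhi (0), 182 to 610 for CD62Llo (526) and 1 to 5 for the interaction (1). With only the 2 groups fitted 109 of all genes were called in CD62Llo and 5 in CD62Lhi. The interaction was called for 4 genes without the filter, 7 with library weights and 3 without the trend. The Tigit to Cd226 ratio difference stayed at 2.73 to 3.33 in KO and 3.54 to 4.01 in HET, and that of Cd96 to Cd226 at -0.47 to -0.32 in KO and -0.75 to -0.71 in HET.

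Across the 20 alternatives for KO against HET CD62Llo, limma adjusted p-values ran from 0.00617 to 0.0595 for Tigit, 0.00362 to 0.108 for Havcr2, 0.00818 to 0.0653 for Cd226, 0.00457 to 0.232 for Lag3, 0.0288 to 0.216 for Pdcd1 and 0.0409 to 0.147 for Cd101. A replicate block changed no other receptor call; it gave 2287 genes between KO fractions, 3636 between HET fractions, 755 for CD62Llo, 0 for CD62Lhi and 1 for the interaction. Deviations of same-numbered KO fractions correlated at 0.131, 0.0684 and 0.178, and those of different numbers at -0.178 to 0.0858, so that the ranges overlapped. Quantile normalization moved the median change of all genes by -0.10 in HET and -0.07 in KO; its higher and lower calls were 954 and 797 between KO fractions (1365 and 487 as deposited), 1431 and 1638 between HET fractions (2148 and 1015), and 237 and 310 for CD62Llo genotypes (155 and 371). Median centring gave 1041 and 901, 1570 and 1749, and 230 and 291. The receptor calls numbered 7, 7 and 3 under both. With 1 HET CD62Lhi library left, it is assumed to vary like the other groups. Depth limits Havcr2 and Lair1 most.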
